A study of Mus musculus with 66 samples.

Results

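Genes of the proteasome were followed across 66 Affymetrix arrays of mouse medial prefrontal cortex. The members were all genes whose symbol is Psm, a letter from a to g and a number, with the immunoproteasome genes Psmb8 and Psmb9 left out. A probe set, the group of short probes that reads a transcript, was kept where its mean over the 66 arrays was at or above the 40th percentile of all 45037 probe sets, a log2 level of 5.10, and each gene was read by its brightest probe set. This gave 45 members among 13196 genes, out of 47 symbols that fit the name rule. Psma8 and Psmb11, at mean log2 levels of 4.13 and 4.00, lay below the limit. Of the 45 members, 43 are subunits, activators, an inhibitor or assembly chaperones of the proteasome. The other 2 fit the name only: Psmc3ip is a cofactor of meiotic recombination and Psme3ip1 encodes a partner protein of the activator subunit Psme3. The activator gene Psme2 was read only by a probe set shared with Psme2b and was not counted as a member.

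The mice were males of 10 to 12 weeks of the inbred strains C57BL6/J and DBA/2J, the progenitors, and of 27 BXD strains, which are recombinant inbred strains derived from crosses of those progenitors. They received an intraperitoneal injection of saline or of ethanol at 1.8 g/kg, and all of them, the saline groups included, were then restrained for 15 minutes and placed in a light-dark box for 10 minutes. Tissue was taken 4 hours after the injection, and the RNA of 4 to 5 animals was pooled for an array. Each progenitor had 3 saline and 3 ethanol arrays, and each BXD strain had 1 saline and 1 ethanol array. The comparisons address the effect of acute ethanol, the difference between the progenitors and the variation among the BXD strains.

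The proteasome is the main protease of the cytosol and nucleus and degrades proteins tagged with ubiquitin. Its 20S core is a barrel of outer alpha and inner beta rings, and the beta subunits Psmb5, Psmb6 and Psmb7 carry the cutting sites. The 19S cap binds the ubiquitin tag, unfolds the substrate with a ring of ATPases and removes ubiquitin with a subunit of its lid. In neurons the proteasome takes part in the turnover of synaptic proteins. When proteasome capacity falls, the transcription factor Nfe2l1 is known to raise most subunit genes together, through antioxidant response elements in their promoters.

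The members comprised 7 alpha ring genes, 7 constitutive beta ring genes, the immunoproteasome subunit Psmb10, 4 chaperones of 20S assembly, 6 ATPases and 3 other subunits of the 19S base, 8 lid subunits, 3 chaperones of base assembly, 3 activators and the inhibitor Psmf1, besides the 2 genes of other function. Mean log2 levels ran from 6.41 for Psmc3ip to 11.33 for Psmb7, and since levels of different probe sets are not comparable they were not ranked. Array medians lay between 5.67 and 5.77, and the number of arrays limits the precision. The 5 excitatory cortical neuron markers analysed here had mean log2 levels of 8.44 to 11.95. Striatal markers were also measured, 4 of 6. In whole tissue, fewer cells of a type and less RNA per cell cannot be told apart.

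Promoter letters of a single reference build are given here, and differences between the strains in these letters were not tested. The promoter sequences of the 4 genes that differed between the progenitors are shown with that of Psmb5, a catalytic subunit that did not pass the test. They come from RefSeq (GRCm38.p6), run 5′ to 3′ on the gene's strand from 250 bases before the annotated start to 20 bases after it, and have matches to the searched motifs in capitals. Psmb6 lies at chr11:70525107-70525376 on the plus strand, Psme4 at chr11:30771525-30771794 on the plus strand, Psmg4 at chr13:34162714-34162983 on the plus strand, Psmb10 at chr8:105938373-105938642 on the minus strand and Psmb5 at chr14:54617976-54618245 on the minus strand.
Psmb6: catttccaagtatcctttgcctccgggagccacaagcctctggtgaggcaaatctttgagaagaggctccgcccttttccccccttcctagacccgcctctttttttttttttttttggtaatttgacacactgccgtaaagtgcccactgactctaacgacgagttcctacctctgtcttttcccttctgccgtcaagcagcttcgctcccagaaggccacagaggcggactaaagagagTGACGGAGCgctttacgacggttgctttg
Psme4: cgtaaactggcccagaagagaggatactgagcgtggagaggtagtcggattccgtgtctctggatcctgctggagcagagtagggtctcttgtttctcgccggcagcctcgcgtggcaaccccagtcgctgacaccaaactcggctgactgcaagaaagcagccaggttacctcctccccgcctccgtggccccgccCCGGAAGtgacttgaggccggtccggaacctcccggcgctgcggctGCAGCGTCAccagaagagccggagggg
Psmg4: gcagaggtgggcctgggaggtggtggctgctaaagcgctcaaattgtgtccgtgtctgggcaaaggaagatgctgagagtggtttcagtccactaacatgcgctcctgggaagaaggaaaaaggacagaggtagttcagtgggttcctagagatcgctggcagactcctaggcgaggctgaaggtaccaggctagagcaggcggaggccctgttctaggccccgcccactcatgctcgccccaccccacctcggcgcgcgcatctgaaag
Psmb10: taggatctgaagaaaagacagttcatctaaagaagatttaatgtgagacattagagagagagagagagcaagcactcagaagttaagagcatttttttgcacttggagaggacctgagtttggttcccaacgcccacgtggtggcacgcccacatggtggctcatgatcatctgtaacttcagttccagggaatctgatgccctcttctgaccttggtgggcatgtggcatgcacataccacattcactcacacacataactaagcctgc
Psmb5: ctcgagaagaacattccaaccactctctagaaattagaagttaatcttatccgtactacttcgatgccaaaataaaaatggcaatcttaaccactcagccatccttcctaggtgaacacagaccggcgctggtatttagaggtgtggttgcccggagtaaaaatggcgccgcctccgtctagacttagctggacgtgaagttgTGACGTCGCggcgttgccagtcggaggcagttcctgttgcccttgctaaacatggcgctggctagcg
The motifs, searched on both strands of the full window of 250 bases before to 50 after the start, were the antioxidant response element TGACNNNGC, the NF-Y box CCAAT and the ETS core CCGGAAG. Psmb6 and Psmb5 each had an antioxidant response element match, Psme4 had a match to that element and to the ETS core, and Psmg4 and Psmb10 had no match. Promoters were found for 38 of the 45 members, and 3 of these had more than 1 entry. The antioxidant response element was matched in 6 of the 38 (15.8%), against 13.99% of 27025 genes with a promoter in the table: Psmb5, Psmb6, Psmc6, Psmd9, Psmd12 and Psme4. The NF-Y box was matched in 14 (36.8%, against 41.1% of all genes). The ETS core was matched in 16 (42.1%, against 9.93%), among them Psmd2, Psmd6, Psmd11, Psmd12 and Psmd13 of the 19S cap. The base composition of these promoters was not matched to that of all genes, and a match is a description of the letters and not of binding.

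The widest difference among the members was that of Psmb6, the beta ring subunit with caspase-like activity, which was lower in DBA/2J than in C57BL6/J. After saline, its log2 levels were 10.03, 10.16 and 10.20 on the C57BL6/J arrays and 9.18, 9.37 and 9.41 on the DBA/2J arrays. After ethanol, they were 10.16, 10.09 and 10.10 in C57BL6/J and 9.52, 9.36 and 9.40 in DBA/2J. The strains did not overlap under either treatment, and the saline and ethanol arrays within a strain did. Psmb6 was lower in DBA/2J by a log2 difference of -0.82 (SE 0.08) after saline and -0.68 (SE 0.08) after ethanol, or 0.568 and 0.622 of the C57BL6/J level. The adjusted p-values were 9.21e-06 and 6.2e-05 (limma, Benjamini-Hochberg over 13196 genes, 3 arrays a group). Psmb6 was read by 1 probe set. BXD genotypes and the sequences of its probes were not used here, and whether the strains differ in sequence under these probes was not tested.

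Psme4, which encodes the nuclear activator PA200, was also lower in DBA/2J. Its saline levels were 8.54, 8.43 and 8.29 in C57BL6/J and 7.84, 8.11 and 7.99 in DBA/2J. Its ethanol levels were 8.51, 8.33 and 8.47 in C57BL6/J and 7.85, 8.15 and 7.98 in DBA/2J. Every DBA/2J array lay below every C57BL6/J array. The log2 difference was -0.44 (SE 0.10, adjusted p = 0.00974 by limma) after saline and -0.44 (SE 0.10, adjusted p = 0.0112) after ethanol. Of the 4 Psme4 probe sets above the level limit, the brightest 3 gave saline differences of -0.44, -0.46 and -0.40 and ethanol differences of -0.44, -0.27 and -0.45, and the dimmest, at a mean of 5.50, gave -0.11 and -0.01. Without the first saline C57BL6/J array the saline difference was -0.38 with an adjusted p of 0.0576. Without the first ethanol C57BL6/J array or the first ethanol DBA/2J array, the adjusted p for the ethanol difference was 0.0512 and 0.067.

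Psmg4, a chaperone of 20S assembly also called PAC4, was higher in DBA/2J. The saline arrays read 7.57, 7.31 and 7.72 in C57BL6/J and 7.96, 8.07 and 8.22 in DBA/2J. The ethanol arrays read 7.46, 7.70 and 7.47 in C57BL6/J and 8.12, 8.06 and 8.03 in DBA/2J. The strains did not overlap. The log2 difference was 0.55 (SE 0.11, adjusted p = 0.00334 by limma) after saline and 0.52 (SE 0.11, adjusted p = 0.00541) after ethanol.

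Psmb10, the immunoproteasome subunit that takes the place of Psmb7, was higher in DBA/2J. Its saline levels were 9.21, 9.21 and 9.31 in C57BL6/J and 9.65, 9.53 and 9.51 in DBA/2J, and its ethanol levels were 9.12, 9.25 and 9.04 against 9.47, 9.41 and 9.39. No DBA/2J array reached down to the C57BL6/J range of the same treatment. The log2 difference was 0.32 (SE 0.08, adjusted p = 0.0178 by limma) after saline and 0.29 (SE 0.08, adjusted p = 0.0376) after ethanol. It missed the threshold when any of 3 saline arrays was left out (the first or the second of C57BL6/J, or the first of DBA/2J), with saline adjusted p-values of 0.0697, 0.0601 and 0.0771. The ethanol difference missed it without any of the 3 ethanol DBA/2J arrays, the first or the third ethanol C57BL6/J array, the first saline C57BL6/J array or the second saline DBA/2J array, with adjusted p-values of 0.0506 to 0.166. It also missed the threshold with the replicate number as a block (adjusted p = 0.0668), without the level filter (0.0596) and after repeated quantile normalization (0.0873). Psmb8 and Psmb9, the other immunoproteasome subunits, were measured at saline differences of 0.13 (SE 0.12) and 0.14 (SE 0.10), neither past the threshold.

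**Figure D1:**
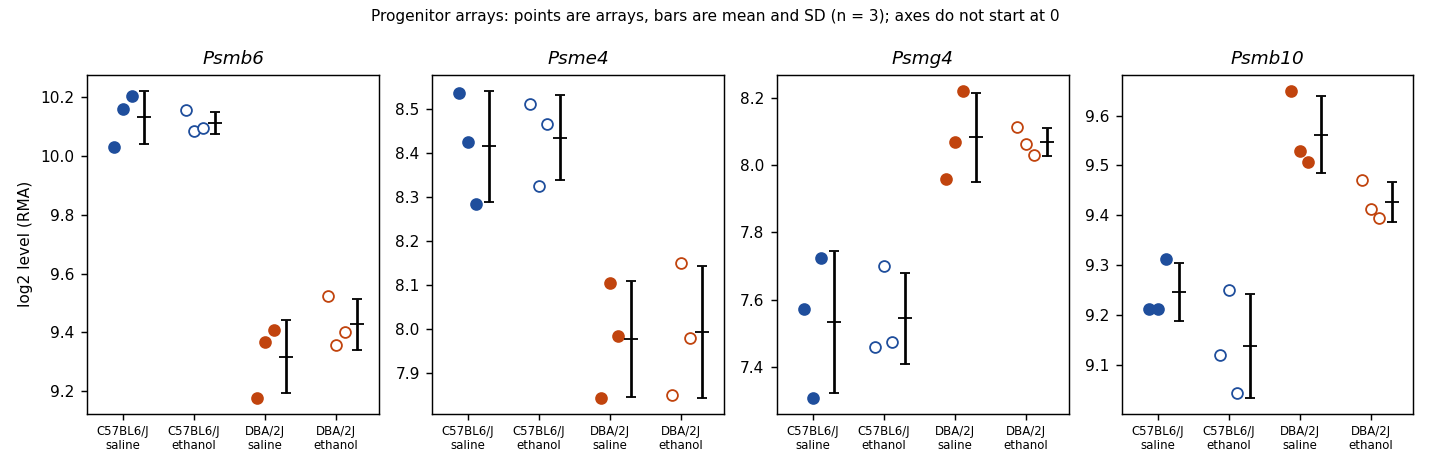
Log2 levels of Psmb6, Psme4, Psmg4 and Psmb10 on the 12 progenitor arrays (points; filled for saline, open for ethanol), with the mean and SD of each group of 3. Psmb6 and Psme4 were lower, and Psmg4 and Psmb10 higher, on every DBA/2J array than on every C57BL6/J array of the same treatment.

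These 4 genes were the members past an adjusted p of 0.05 between the progenitors after saline, 4 of 45 (8.89%) where 10.3% of all genes passed, and the same 4 passed after ethanol, where 7.23% of all genes did, with the losses of the Psmb10 and Psme4 calls given above. At an unadjusted p below 0.05 there were 9 members under each treatment, where 25.2% of all genes passed after saline and 2633 of 13196 after ethanol. The share of members was thus near that of the genome at large. The saline differences of the 45 members had a median of -0.02, against 0.02 over all genes, and 22 of 45 lay above 0, against 54.6% of all genes. After ethanol the median was 0.07, against 0.03, with 34 of 45 above 0, against 59.0%. The arrays of the strains did not overlap for 15 members after saline, where 30.4% of all genes did not overlap, and for 17 after ethanol, where 25.1% did not. The other catalytic subunits did not pass: Psmb5 had differences of 0.12 (SE 0.09) after saline and 0.12 (SE 0.09) after ethanol, and Psmb7 of 0.10 (SE 0.08) and 0.15 (SE 0.08). Psme1, a subunit of the interferon-inducible activator PA28, had 0.13 (SE 0.07) after saline and 0.18 (SE 0.07, adjusted p = 0.17 by limma) after ethanol. Its partner Psme2, on the shared probe set, had -0.02 (SE 0.09) after saline and 0.02 (SE 0.09) after ethanol. The inhibitor Psmf1 had 0.13 (SE 0.08) and 0.05 (SE 0.08), and Psmc3ip, the dimmest member, 0.20 (SE 0.11) and -0.01 (SE 0.11).

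Cell type markers also differed between the progenitors. All 5 myelin markers analysed here were lower in DBA/2J, with mean log2 levels per array of 8.65 to 9.02 against 9.50 to 9.58 after saline and of 8.86 to 8.95 against 9.21 to 9.48 after ethanol. Of the 6 microglial markers, 5 were lower in DBA/2J after saline, with list means of 8.19 to 8.43 against 8.43 to 8.68, and after ethanol 4 were lower, with list means of 8.29 to 8.35 against 8.48 to 8.53. A further 3 lists overlapped after saline and not after ethanol. The meningeal list read 7.49 to 7.62 in DBA/2J against 7.74 to 7.90 in C57BL6/J and the astrocyte list 9.91 to 10.01 against 10.02 to 10.13, each with 5 of 6 markers lower in DBA/2J. The inhibitory neuron list read 10.01 to 10.06 against 9.82 to 9.93, with 2 of 6 lower. The 2 measured choroid plexus markers of 5 had list means of 6.72 to 7.67 in DBA/2J against 6.24 to 6.49 after saline, and of 6.17 to 8.63 against 6.21 to 6.38 after ethanol. Ttr had means of 7.85 against 6.41 after saline and 7.77 against 6.31 after ethanol. Clic6 was nearly level between the strains, at 6.26 against 6.25 and 6.32 against 6.31. On the log2 scale no marker can be read as 0, and Kl, Folr1 and Aqp1 of the choroid plexus list were not among the genes analysed here. The part of these markers in the differences of the proteasome genes was not tested.

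Other genes of the pathway were taken from a list of 34 regulators, ubiquitin receptors and shuttles, deubiquitinases and related genes, of which 25 were measured. After saline 3 of the 25 passed between the progenitors, all lower in DBA/2J, where 10.3% of all genes passed. Rad23b, a shuttle that brings ubiquitinated proteins to the proteasome, had a log2 difference of -0.53 (SE 0.13), Nfe2l2, the transcription factor of the oxidative stress response, of -0.39 (SE 0.12), and Ufd1, a cofactor of the p97 segregase, of -0.28 (SE 0.08). After ethanol none of the 25 passed by limma, where 7.23% of all genes did. At an unadjusted p below 0.05 there were 3, where 2633 of 13196 genes were. The ethanol differences were -0.21 (SE 0.13) for Rad23b, -0.31 (SE 0.12) for Nfe2l2 and 0.01 (SE 0.08) for Ufd1.

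Among the 27 BXD strains, Psmb6 fell into separate high and low classes. In 9 strains its saline level lay between 9.18 and 9.38 (median 9.29) and its ethanol level between 9.12 and 9.45 (median 9.23). In the other 18 strains the saline level lay between 9.97 and 10.31 (median 10.18) and the ethanol level between 9.91 and 10.39 (median 10.11). The low class lay near the DBA/2J levels and the high class near the C57BL6/J levels: in all 27 strains both arrays lay on the same side of the midpoint between the progenitor means. No strain mean fell between 9.38 and 10.07. The low strains were BXD16, BXD28, BXD21, BXD19, BXD34, BXD02, BXD32, BXD15 and BXD06.

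Strain levels of the other genes were graded. Psme4 had strain means from 7.76 to 8.59 with no gap wider than 0.10. Both arrays lay on the DBA/2J side of the midpoint in 12 strains and on the C57BL6/J side in 11, and the arrays of 4 strains were split. For Psmg4 the counts were 6 on the DBA/2J side, 15 on the C57BL6/J side and 6 split, and for Psmb10 they were 2, 16 and 9. Psmb6 and Psme4 both lie on chromosome 11, at the positions given above. Of the 9 strains on the DBA/2J side for Psmb6, 4 were on the DBA/2J side for Psme4, 2 on the C57BL6/J side and 3 split, and of the 18 on the C57BL6/J side for Psmb6 the counts were 8, 9 and 1.

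**Figure D2:**
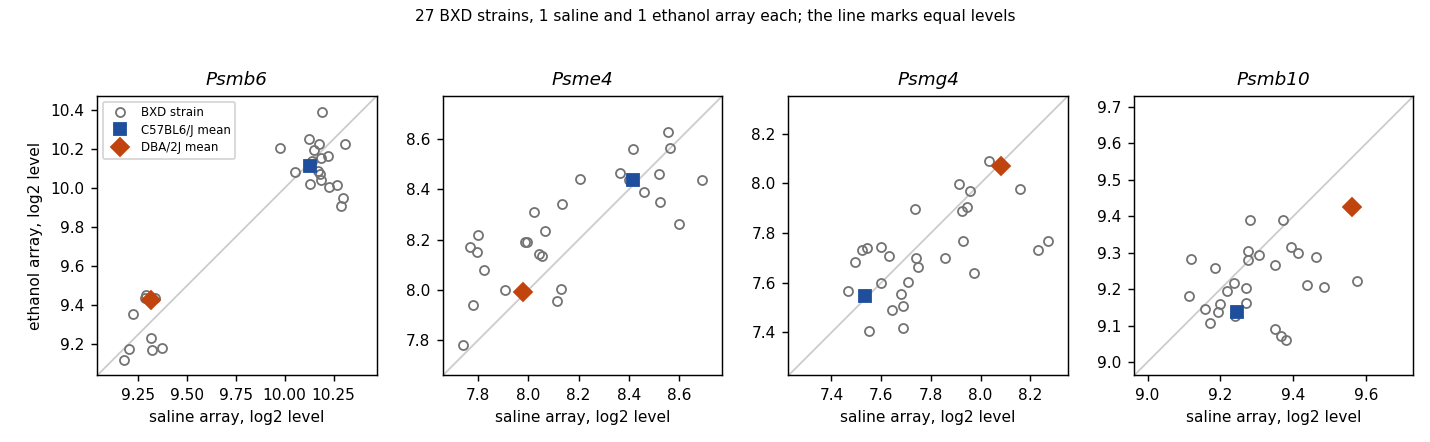
Log2 level on the saline array (horizontal) against the ethanol array (vertical) of each of 27 BXD strains, with the progenitor means. Psmb6 forms a cluster of 9 strains near DBA/2J and one of 18 near C57BL6/J, while Psme4, Psmg4 and Psmb10 spread without such a gap.

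A moderated F test over the strains, with treatment in the model, found a strain effect for 5 of 45 members (11.1%), where 20.4% of all genes passed, and 8 had an unadjusted p below 0.05, where 32.9% of all genes did. With array weights 8 members passed, and the 20.4% of all genes is not from that weighted fit. Psmb6 had F = 27.3 (adjusted p = 8.97e-14, limma), Psme4 6.66 (8.95e-06), Psmg4 3.63 (0.00294), Psmd9 3.22 (0.00712) and Psma3 2.55 (0.0319). The intraclass correlation estimates the share of variance between strains rather than between the arrays of a strain. It falls below 0 where the spread within strains exceeds that between them. Its value was 0.93 for Psmb6, and 0.523% of all genes had a higher value. It was 0.73 for Psme4, 0.58 for Psma3, 0.55 for Psmg4, 0.51 for Psmd9 and 0.49 for Psme3ip1, which did not pass the F test. Over the 45 members its median was 0.13, against 0.18 over all genes, and it was -0.31 for Psmb5 and 0.22 for Psmb7. Psmb10, which differed between the progenitors, had 0.17 and did not pass among the strains (F = 1.23). Nor did Psmb5 (F = 0.55), Psmb7 (1.33), Psme1 (1.48), Psmf1 (1.08), Psmc3ip (1.70) or the shared Psme2 probe set (0.63).

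Psmd9, a chaperone of 19S base assembly, had strain means from 7.21 in BXD11 to 7.90 in BXD01. Between the progenitors it differed by -0.25 (SE 0.09, adjusted p = 0.0945 by limma) after saline. After ethanol its means were 7.44 in DBA/2J and 7.58 in C57BL6/J. Psma3, an alpha ring subunit, had strain means from 10.59 in BXD38 to 10.92 in BXD01 and a saline progenitor difference of -0.24 (SE 0.08, adjusted p = 0.0627). After ethanol its means were 10.73 in DBA/2J and 10.75 in C57BL6/J. The second probe set above the level limit followed the brightest over strain means at r = 0.70 for Psmd9. For Psma3, at a mean level of 5.86, it did so at r = 0.39. The Psma3 strain effect missed the threshold without any of 5 strains (BXD01, BXD08, BXD27, BXD38 or BXD39), with adjusted p-values up to 0.0658. Among the 25 pathway genes 2 passed the strain test, where 20.4% of all genes did. They were the deubiquitinase Uchl5 (F = 2.48) and Akirin2, which guides nuclear import of the proteasome (F = 2.36).

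**Figure D3:**
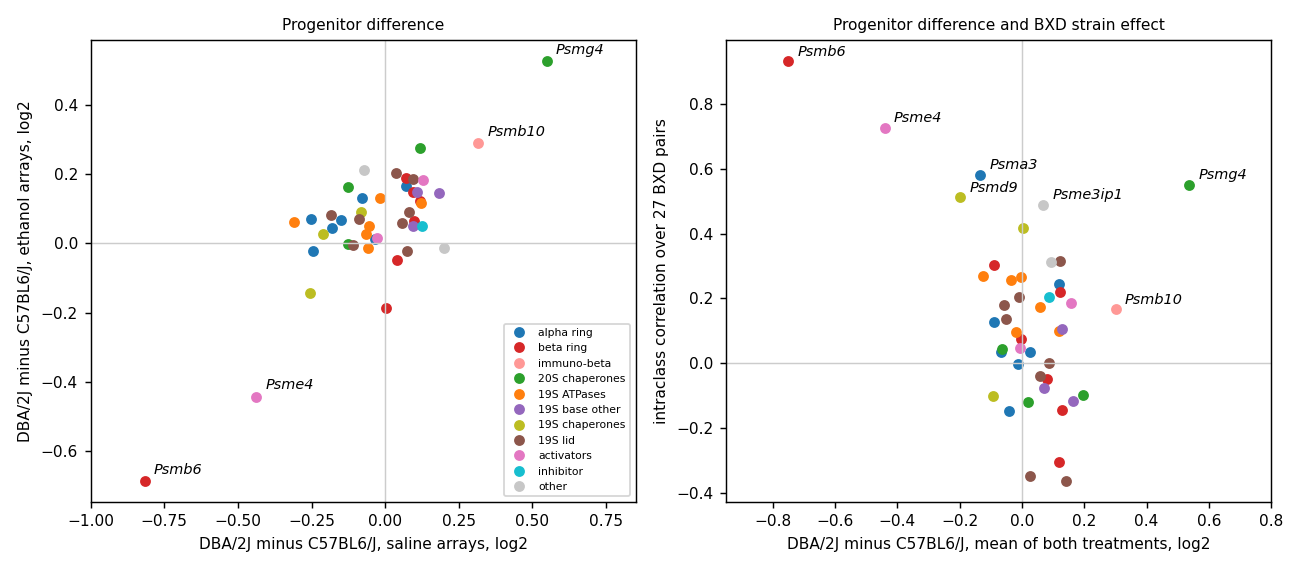
Left, DBA/2J minus C57BL6/J log2 difference of the 45 members on saline and on ethanol arrays, coloured by role. Right, the mean of those differences against the intraclass correlation over 27 BXD pairs. Psmb6, Psme4, Psmg4 and Psmb10, named at left, are the members past the threshold between the progenitors. At right, Psmb6 (0.93) and Psme4 (0.73) have the highest intraclass correlations. Psmg4 (0.55) lies near Psma3 (0.58) and Psmd9 (0.51), and Psmb10 has 0.17.

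The genes closest to Psmb6 were ranked by the size of the Pearson correlation of strain means over 27 strains. All of the first 10 lie on chromosome 11, at sizes of 0.845 to 0.983. Zzef1, a zinc finger protein gene, had r = 0.98, and Pfn1, which encodes the actin-binding protein profilin, had r = -0.93. Of the 20 measured genes nearest to Psmb6 along the chromosome, 11 had an r beyond 0.5 in either direction, against 0.173% of 12105 genes on other chromosomes. For Psme4, 8 of the first 10 lie on chromosome 11, led by Ccdc88a (r = 0.93), and 9 of its 20 nearest measured genes were beyond 0.5, against 9.93% of the genes on other chromosomes. For Psmg4, 4 of 10 lie on its chromosome 13, and 6 of its 20 nearest measured genes were beyond 0.5, against 2.70% of the genes on other chromosomes. These correlations share arrays and strains and are descriptions. Psmb10 was also read by 1 probe set, and the second Psmg4 probe set lay below the level limit.

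No member differed past the threshold between ethanol and saline in the BXD strains. None of the 45 passed in the paired comparison of 27 strains (limma), where 0.00758% of all genes did, and 2 had an unadjusted p below 0.05, where 4.93% of all genes did. The Wilcoxon signed-rank test also passed none, where 1 of 13196 genes passed. It gave 2 members an unadjusted p below 0.05, where 639 of 13196 genes had one. Psmb10 had ethanol minus saline of -0.08 (SE 0.03, adjusted p = 0.829) and was lower in 20 of 27 strains. Its BXD saline levels ran from 9.11 to 9.58 (median 9.28) and its ethanol levels from 9.06 to 9.39 (median 9.21), so the groups overlapped widely. Psme4 had 0.09 (SE 0.04, adjusted p = 0.934) and was higher in 19 strains.

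The next smallest p-values were those of Psmg4 at -0.07 (SE 0.04), Psmg3, another 20S assembly chaperone, at -0.06 (SE 0.04) and Psmd9 at -0.06 (SE 0.04), none past the threshold. The catalytic subunits had -0.03 (SE 0.04) for Psmb5, -0.04 (SE 0.03) for Psmb6 and -0.02 (SE 0.03) for Psmb7. Psme1 had -0.04 (SE 0.03), the shared Psme2 probe set -0.06 (SE 0.04), Psmf1 -0.02 (SE 0.02) and Psmc3ip -0.02 (SE 0.03). The median over the members was -0.02, against -0.01 over all genes, and 9 of 45 lay above 0, against 37.6% of all genes. Psmb9 had -0.09 (SE 0.04, adjusted p = 0.957) and Psmb8 -0.07 (SE 0.05). Of the 6 microglial markers 5 had negative differences in the same comparison, with a median of -0.06 and list means of 8.29 to 8.85 on saline and 8.19 to 8.63 on ethanol arrays. All 6 meningeal, all 6 endothelial and pericyte and all 4 measured striatal markers also had negative differences, with medians of -0.04, -0.02 and -0.07. The part of these markers in the member values, those of Psmb10 included, was not tested.

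**Figure D4:**
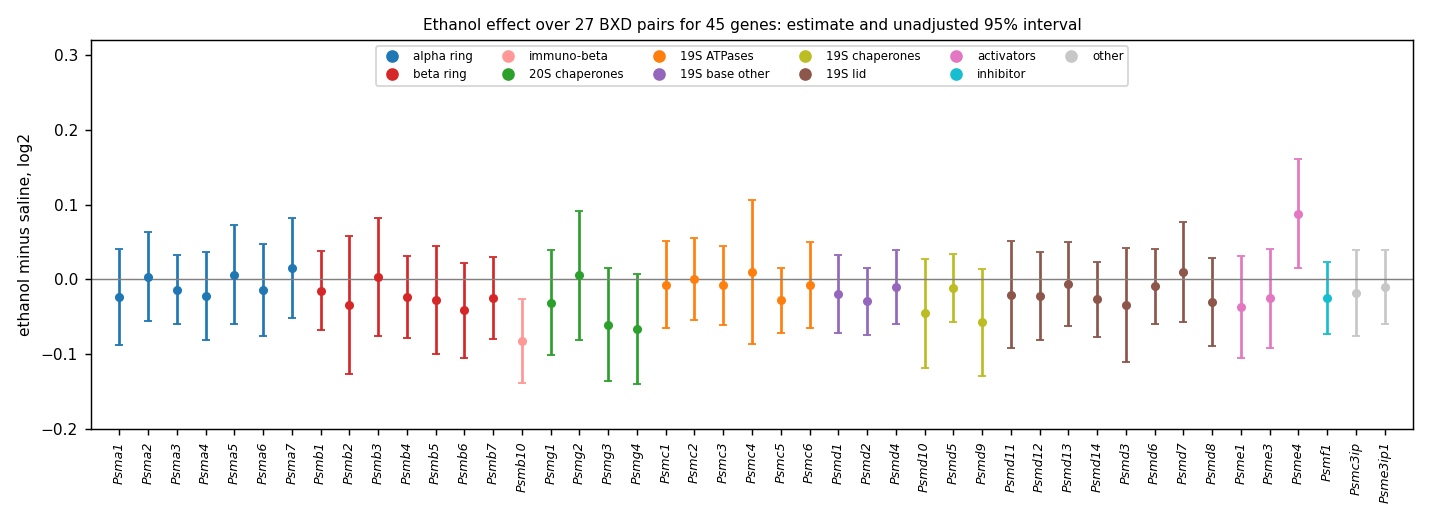
Ethanol minus saline log2 difference over 27 BXD strains for each of the 45 members, ordered and coloured by role, with unadjusted 95% intervals from the limma fit. The values run from -0.08 for Psmb10 to 0.09 for Psme4, and no member passed after adjustment.

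In C57BL6/J, ethanol passed none of the 45 members (limma, where 0.00758% of all genes passed), and 2 had an unadjusted p below 0.05, where 4.98% of all genes did. Psme3, which forms the nuclear activator PA28 gamma, read 8.82, 9.01 and 8.99 on saline arrays and 8.68, 8.80 and 8.57 on ethanol arrays. The groups did not overlap, and the log2 difference was -0.25 (SE 0.09, adjusted p = 0.922). Psmd14, the deubiquitinase of the lid, had -0.16 (SE 0.08), the lid subunit Psmd6 -0.15 (SE 0.08), Psme3ip1 -0.14 (SE 0.08) and Psma3 -0.14 (SE 0.08). The catalytic subunits had -0.10 (SE 0.09) for Psmb5, -0.02 (SE 0.08) for Psmb6 and 0.02 (SE 0.08) for Psmb7. Psmb10 had -0.11 (SE 0.08), Psme1 -0.07 (SE 0.07), the shared Psme2 probe set 0.01 (SE 0.09), Psmf1 -0.02 (SE 0.08) and Psmc3ip 0.03 (SE 0.11). The member median was -0.07, against -0.02 over all genes, and 7 of 45 lay above 0, against 41.3% of all genes. The treatments did not overlap for 7 members, where 9.85% of all genes did not. The myelin list means were 9.50 to 9.58 on saline and 9.21 to 9.48 on ethanol arrays, with a median marker difference of -0.14, and the meningeal markers had a median of 0.20. The part of these markers in the member values was not tested.

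In DBA/2J, none of the 45 passed after ethanol either (limma, where 0% of all genes passed), and 5 had an unadjusted p below 0.05, where 12.5% of all genes did. The member median was -0.01, against 0.003 over all genes, and 21 of 45 lay above 0, against 50.9% of all genes. The alpha ring subunit Psma5 read 10.13, 10.21 and 9.96 on saline and 10.36, 10.30 and 10.48 on ethanol arrays, without overlap, a difference of 0.28 (SE 0.09, adjusted p = 0.258). The treatments did not overlap for 9 members, where 17.9% of all genes did not. Psmg2, a chaperone of alpha ring assembly, had 0.24 (SE 0.09), and the alpha subunits Psma7 and Psma1 had 0.18 (SE 0.08) and 0.19 (SE 0.09). Psme3 had -0.21 (SE 0.09), read 8.76, 8.97 and 9.004 on saline and 8.80, 8.66 and 8.64 on ethanol arrays, and its groups overlapped. The catalytic subunits had -0.10 (SE 0.09) for Psmb5, 0.11 (SE 0.08) for Psmb6 and 0.07 (SE 0.08) for Psmb7. Psmb10 had -0.14 (SE 0.08), Psme1 -0.01 (SE 0.07), the shared Psme2 probe set 0.04 (SE 0.09), Psmf1 -0.10 (SE 0.08) and Psmc3ip -0.18 (SE 0.11). The excitatory neuron list means were 10.33 to 10.42 on saline and 10.42 to 10.51 on ethanol arrays, apart by less than the digits printed. The median difference of its markers was 0.01. Neurod6 went from 9.35 to 9.89 and Tbr1 from 8.22 to 8.41, Slc17a7 from 10.42 to 10.18 and Nrgn from 12.025 to 11.93, and Camk2a from 11.91 to 11.93. The inhibitory neuron and astrocyte markers had medians of 0.11 and -0.08. The part of these markers in the DBA/2J member values was not tested.

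Averaged over both progenitors, Psme3 had the smallest p of the members, at -0.23 (SE 0.07, adjusted p = 0.448). In the same average Psmb10 had -0.12 (SE 0.06), Psmd14 -0.11 (SE 0.05), the ubiquitin receptor Psmd4 -0.11 (SE 0.05) and the ATPase Psmc3 -0.10 (SE 0.05). Psmb5 had -0.10 (SE 0.06), Psmb6 0.05 (SE 0.06) and Psmb7 0.04 (SE 0.06). Psme1 had -0.04 (SE 0.05), the shared Psme2 probe set 0.02 (SE 0.06), Psmf1 -0.06 (SE 0.06) and Psmc3ip -0.07 (SE 0.08). Of the members 0 passed in that average by limma, where 0.0455% of all genes did, and 2 had an unadjusted p below 0.05, where 8.84% of all genes did.

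The alpha ring differences after ethanol had mostly opposite signs in the progenitors, and the test of that difference was passed by none of the genes. In C57BL6/J all 7 lay below 0 (median -0.08) and in DBA/2J 6 of 7 lay above 0 (median 0.12). Without the second ethanol C57BL6/J array the C57BL6/J median was -0.04 with 2 of 7 above 0, as it was after repeated quantile normalization, and without the third ethanol DBA/2J array the DBA/2J median was 0.07. Other roles were also one-sided in C57BL6/J, where 0 of 6 ATPases, 0 of 3 other base subunits and 0 of 3 base chaperones lay above 0, and in DBA/2J these counts were 2, 0 and 2. The interaction, the DBA/2J response minus the C57BL6/J response, had a median of 0.22 over the alpha ring, with 7 of 7 above 0, where 57.2% of all genes were. The alpha ring median of DBA/2J minus C57BL6/J was -0.15 after saline (1 of 7 above 0) and 0.07 after ethanol (6 of 7). The alpha ring interaction median was 0.14 with array weights and 0.16 without the first saline DBA/2J array. Without the second saline C57BL6/J array 6 of 7 lay above 0. The 7 genes were correlated over the BXD arrays and are not independent counts. The interaction median was 0.09 over the 45 members and 0.03 over all genes. The interaction also lay above 0 for 33 of 45 members, among them 7 of 8 lid subunits, 5 of 6 ATPases and 3 of 3 base chaperones, and for 4 of 7 in the beta ring. No member passed in the interaction by limma, where 0% of all genes did, and 3 had an unadjusted p below 0.05, where 8.31% of all genes did: Psma5 at 0.32 (SE 0.13, adjusted p = 0.563), Psmg2 at 0.29 (SE 0.13) and Psme3ip1 at 0.28 (SE 0.11). Psma3 and Psma6 followed at 0.22 (SE 0.11) and 0.21 (SE 0.11). Psmb5 had an interaction of 0.0028 (SE 0.12), Psmb6 of 0.13 (SE 0.12), Psmb7 of 0.05 (SE 0.12) and Psmb10 of -0.03 (SE 0.11). Psme1 had 0.05 (SE 0.10), the shared Psme2 probe set 0.04 (SE 0.13), Psmf1 -0.08 (SE 0.11) and Psmc3ip -0.21 (SE 0.15). In the BXD strains the alpha ring median for ethanol was -0.01 with 3 of 7 above 0. The 25 pathway genes had none past the threshold in any ethanol comparison by limma, nor in the interaction. At an unadjusted p below 0.05 there was 1 of 25 in the BXD strains and 0 in C57BL6/J, where 4.93% and 4.98% of all genes were. In DBA/2J there were 7, where 12.5% of all genes were. The average of the progenitors had 7, where 8.84% were, and the interaction 3, where 8.31% were. These progenitor comparisons share arrays.

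Levels of the members were on average positively correlated over the BXD arrays. Over the 990 pairs of members, the mean Pearson correlation across 27 saline arrays was 0.19, against 0.02 over all pairs of genes, and across the ethanol arrays it was 0.29 against 0.02. Within the alpha ring the mean was 0.44 on saline and 0.62 on ethanol arrays, with all 21 pairs positive on both. Psmd6 had the highest correlation with the mean of the other core subunits, 0.87 on saline and 0.87 on ethanol arrays. Within the beta ring it ran from 0.05 for Psmb2 to 0.68 for Psmb1 on saline arrays, with 0.13 for Psmb6 and 0.21 for Psmb5, and from 0.08 for Psmb6 to 0.82 for Psmb1 on ethanol arrays. The widest opposite pair on ethanol arrays, named after its value was seen, was Psmd3 and Psmd11, both lid subunits, at -0.82. The mean of the core subunits had a correlation of 0.35 with the array's SD over all probe sets on saline and of 0.53 on ethanol arrays, and the part of this in the correlations among members was not tested.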

How the data were processed

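Expression was measured with Affymetrix mouse arrays on pooled medial prefrontal cortex RNA. The deposited values are on a log2 scale, and affy and RMA are the tools that the submitters' processing notes name, with no version. RMA makes array distributions alike, so values are relative. Per the labels, samples were assigned to batches at random; the batch of each array was not used here. Of 45037 probe sets, 34945 had 1 gene symbol, 932 had several and 9160 had none. limma 3.58.1 in R 4.3.3 fitted the 54 BXD arrays with strain and treatment, and the 12 progenitor arrays with the 4 groups; p-values were adjusted by Benjamini-Hochberg over 13196 genes, with a threshold of 0.05. BXD arrays were paired by the labelled strain: over 200 genes, all 27 strains had their own partner array as the closest in both directions. The fits were tested on simulated data with known changes. The saline strain comparison of the progenitors recovered 1 of 50 changes of log2 0.25 and 37 of 50 of log2 0.5. The BXD ethanol comparison recovered 47 of 50 changes of log2 0.25. Each simulation held 200 changed genes and noise drawn independently for each gene. False calls among the other genes numbered 5 in the progenitor run and 12 in the BXD run. Genes in the data are correlated and few passed after ethanol, so these shares do not give the power of the comparisons made here. The labels do not say that arrays held separate animals, so p-values measure the spread between arrays.

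Named members are those past the threshold, or, where fewer than 3 passed, the 5 of smallest p, with the catalytic subunits, Psmb10, Psme1, Psme2, Psmf1 and the brightest and dimmest member always named. The members and lists were chosen with earlier results of these data known. Alternatives covered the level filter, all probe sets, centring, repeated quantile normalization, the variance prior, array weights, blocks, all 66 arrays in 1 fit, and leaving out each array or strain. The same settings for the alpha ring median were chosen after seeing the data.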

Additional observations from a re-analysis of the deposited data

Results flagged for a closer look

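Psme3ip1 had ethanol differences of opposite sign in the progenitors, with no overlap of arrays in either. In C57BL6/J every ethanol array (8.97, 8.99 and 8.97) lay below every saline array (9.10, 9.17 and 9.07), and in DBA/2J every ethanol array (9.14, 9.24 and 9.18) lay above every saline array (8.90, 9.09 and 9.14), the nearest pair by less than the digits printed. The interaction was 0.28 (SE 0.11, adjusted p = 0.563 by limma), which did not pass. The groups held 3 or 27 arrays, sizes at which outlying arrays were not tested.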

How the results depend on the processing

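No member passed in any of the ethanol comparisons or in the interaction under any alternative that was run, and Psmb6 and Psmg4 kept their calls between the progenitors in all of them. For the 13 calls of single members, 22 of 338 values under alternatives missed the threshold and 0 changed sign. For the 74 named values that had not passed, 0 of 1844 values under alternatives passed and 33 changed sign, in 11 results of a size up to 0.05 (such as Psmb6, Psmb7 and Psmf1 after ethanol in C57BL6/J and Psmb10 in the interaction). With array weights 8 members had a BXD strain effect, against 5. Over the 7 alternatives that include array weights and leave out no strain, 4 to 8 members passed. The counts over all genes then ran from 2233 to 4098, against 2688, on bases that differ with the filter and probe sets. Leaving out an array or strain gave 2 to 5 members past the threshold between the progenitors after saline, 2 to 4 after ethanol, and 4 to 6 with a strain effect. Counts over all genes moved too. Without the first saline C57BL6/J array, 2 members and 848 of all genes passed after saline, against 4 and 1365. Without the first saline DBA/2J array, 902 of all genes passed after saline. All-gene counts beside the other ranges are not given here. The ethanol strain difference of Psmb10 missed the threshold without the level filter (adjusted p = 0.0596 by limma) and after repeated quantile normalization (0.0873), and the Psma3 strain effect did so without the filter (0.0513). Over all progenitor groups, arrays of the same replicate number were not closer: the 18 same-numbered pairs had correlations of -0.393 to 0.262 (median -0.075), and 3 were above 0.1. The 36 pairs of different number had a median of 0.037, and 14 were above 0.1. Saline and ethanol arrays of the same number had 0.262, 0.117 and 0.056 within DBA/2J and 0.082, -0.129 and -0.231 within C57BL6/J. Within DBA/2J, those of different number had -0.305 to 0.164. The labels do not say what the numbers mark. With the replicate number as a block, Psmb10 after ethanol kept its difference of 0.29 with an adjusted p of 0.0668, and the other 7 progenitor calls held. Member medians near 0 changed sign: the DBA/2J ethanol median went from -0.01 to 0.02 with median centring, and the saline strain median from -0.02 to 0.02 with array weights. Counts over all genes that moved by over 1.5 times included DBA/2J ethanol, from 0 to 38 with a replicate block within strain, to 30 with all 66 arrays in 1 fit and to 22 with a trended prior. With all probe sets above the limit the counts were out of 23199 and not 13196, so the 2 sets of counts have different bases. The strain differences then had 2124 after saline (1365 of the 13196 genes) and 1514 after ethanol (954). The strain effect had 4098 (2688). With 3 arrays a group, small changes could be missed.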
